A study of Mus musculus with 4 samples.

Results

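Open chromatin regions in gene deserts were taken from 4 lists of ATAC-seq peaks of mouse embryonic stem cells. A region counted as lying in a desert when it was more than 500 kb from the nearest end and body of every protein-coding gene of the GRCm38 annotation. By this rule 2949 of 203684 regions on the 19 autosomes were in deserts, or 1.45%, in 201 Mb of desert that made up 8.39% of the sequence spanned. The rule used position alone, and no peak height, width or replication entered it. The 3 members nearest to the limit lay 500.009, 500.078 and 500.143 kb from a gene, and the 3 nearest regions outside it lay 499.948, 499.732 and 499.623 kb away.

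ATAC-seq marks open chromatin by letting a transposase insert sequencing adapters where DNA is accessible. It was done on stem cells of genotype wt and of genotype Hox-/-, which per the series title have no Hox function left, with 2 libraries of each genotype. Both genotypes grew in serum and leukaemia inhibitory factor with CHIR99021, an inhibitor of glycogen synthase kinase 3, and PD0325901, an inhibitor of the kinases MEK1/2. The labels do not say whether the replicates of a genotype came from separate cultures or clones, so the spread between them may be technical.

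Gene deserts are long stretches of a chromosome with no protein-coding gene. Some hold enhancers that act over long distances on developmental genes at their borders, and others can be lost with little visible effect. In many cell types they replicate late and lie near the nuclear lamina, where chromatin is mostly closed. Hox genes themselves stand in compact clusters, and some of these clusters are controlled from flanking deserts.

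The 4 lists held 191704 to 216795 peaks, and the depth inferred from their background ranged from 0.640 (Hox-/- replicate 1) to 1 relative to the deepest library, wt replicate 1. All 10 stem cell marker genes examined, among them Pou5f1 and Nanog, were marked in every library, that is, a peak lay no more than 1 kb from the start or end of the gene. A peak was also listed at 4 of 5 fibroblast genes and 3 of 5 primitive endoderm genes in every library. Col3a1, Gata4 and Dab2 had none, and the share of other cells in the cultures was not tested.

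A desert by this rule is not empty of transcription units, because it can hold long non-coding RNA (lncRNA) genes, pseudogenes and antigen receptor gene segments. Start windows of lncRNA genes were the only places in deserts for which sequence was at hand. A set of 3 is shown, from RefSeq on GRCm38.p6, because they had the strongest regions listed in all 4 libraries at a lncRNA start inside a desert. Each runs 5′ to 3′ on the gene's strand from 250 bases before to 50 bases after the start, and capitals mark matches, on either strand, to 7 short motifs of general promoter factors. The windows are 1190028D05Rik at chr8:52356361-52356660 on the plus strand, C330004P14Rik at chr10:15791527-15791826 on the plus strand, and Gm32810 at chr1:112416869-112417168 on the minus strand.
1190028D05Rik: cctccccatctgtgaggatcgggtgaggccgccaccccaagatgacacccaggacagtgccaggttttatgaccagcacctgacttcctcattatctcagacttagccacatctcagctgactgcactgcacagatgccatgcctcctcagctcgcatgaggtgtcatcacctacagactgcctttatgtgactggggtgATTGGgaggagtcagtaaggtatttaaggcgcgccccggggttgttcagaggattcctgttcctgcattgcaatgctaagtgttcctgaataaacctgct
C330004P14Rik: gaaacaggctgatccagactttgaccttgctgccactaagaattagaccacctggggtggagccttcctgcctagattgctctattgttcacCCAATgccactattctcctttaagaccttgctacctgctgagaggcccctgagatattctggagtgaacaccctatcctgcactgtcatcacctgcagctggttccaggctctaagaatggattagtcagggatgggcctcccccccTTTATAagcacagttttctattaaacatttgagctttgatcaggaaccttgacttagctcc
Gm32810: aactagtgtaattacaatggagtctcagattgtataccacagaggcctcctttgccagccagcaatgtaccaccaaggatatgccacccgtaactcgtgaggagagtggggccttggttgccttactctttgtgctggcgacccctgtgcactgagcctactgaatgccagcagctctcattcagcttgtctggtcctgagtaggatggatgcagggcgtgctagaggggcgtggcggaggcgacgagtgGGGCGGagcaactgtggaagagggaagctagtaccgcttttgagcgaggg

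The capitals in 1190028D05Rik mark a CCAAT box read from the opposite strand. C330004P14Rik holds a CCAAT box and a TATA motif (TATAAA, here on the opposite strand), and Gm32810 holds an SP motif (CCGCCC, on the opposite strand). CCAAT was found in 37.3% of all protein-coding and lncRNA start windows of this length, CCGCCC in 35.98% and TATAAA in 13.6%. Also searched were the ETS motif CCGGAA (15.1% of all windows), the octamer ATGCAAAT (1.75%), the CRE TGACGTCA (1.83%) and the NRF1 motif (0.968%), a palindrome without variable positions. Among the 13 desert lncRNA windows with a region in all 4 libraries, CCAAT occurred in 5, CCGCCC in 4, TATAAA in 3, the octamer in 2 and the other motifs in 0. These windows belong to 12 genes: Gm31415 has 2 overlapping windows on the same region, so its CCAAT, SP and octamer matches are counted in both, and the octamer count of 2 is 1 site. The windows of C330004P14Rik and Gm35925 share a long, nearly identical stretch that includes their TATAAA match. Those of 1190028D05Rik and Gm46220 share another such stretch. Windows alike in this way are not independent, and whether they are copies of a repeat was not tested. Among desert lncRNA windows without a region, CCAAT was in 52.4%, TATAAA in 28.3%, CCGCCC in 3.30% and the octamer in 2.36%. CpG dinucleotides numbered 6 in the 1190028D05Rik window, 0 in that of C330004P14Rik and 11 in that of Gm32810.

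The region at the start of 1190028D05Rik ranked 2241 and 1186 in the wt libraries and 2221 and 1579 in the Hox-/- libraries, where rank 1 is the peak with the highest −log10 p of a list. Its summit lay 73, 86, 76 and 70 bases before the annotated start in the 4 libraries. The start of C330004P14Rik ranked 3095 and 3832 in wt and 4805 and 4044 in Hox-/-, so both wt libraries ranked it above both Hox-/- libraries, as in 19.6% of all autosomal regions listed in all 4 libraries. Gm32810 ranked 21841 and 19516 in wt and 19143 and 14811 in Hox-/-, with summits 11, 8, 6 and 17 bases after the start. Here both Hox-/- libraries ranked the region above both wt libraries, as in 21.4% of all such regions. The lists differ in length, however, and as a percent of each list the positions of Gm32810 overlapped between the genotypes. The summits of the 4 libraries spread over at most 16 bases in each of these windows.

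Such starts were rare. Of 206 desert lncRNA genes with a start window, 18 overlapped any region and 12 (5.83%, exact 95% binomial interval 3.05 to 9.95) overlapped a region listed in all 4 libraries. The same share was 42.7% for 3388 lncRNA genes that start within a protein-coding gene body and 27.5% for 3341 that start up to 50 kb from one. It was 19.5% at 50 to 100 kb, 12.8% at 100 to 250 kb and 9.36% at 250 to 500 kb, so it was lower in each further bin up to the desert limit. The median number of CpG dinucleotides was 4 in the 13 desert windows with a region in all 4 libraries and 2 in the 212 with none. For comparison, it was 10 in other lncRNA windows with a region in all 4 libraries and 14 in protein-coding windows. Such intervals express counting error alone, and regions close to each other may vary together.

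Most desert regions lay outside any annotated gene: 433 of them, 14.7%, overlapped a gene entry of any type. These entries, which include whole-locus entries such as that of the immunoglobulin kappa locus, together covered 9.85% of desert bases. Over lncRNA genes the shares were 8.68% of regions and 6.74% of bases. Pseudogenes had 2.00% of regions on 0.971% of bases. Regions over lncRNA genes were in all 4 libraries in 51.2% of cases, against 50.8% of the other desert regions.

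Open regions were sparse in deserts. Their density was 14.6 per Mb, against 91.2 per Mb in the rest of the autosomes, a ratio of 0.160. One region occurred per 68.3 kb of desert and per 10.96 kb elsewhere, and regions covered 0.667% of desert bases against 4.75% of the others. Taken library by library, desert density was 10.8 and 11.1 per Mb in wt and 10.3 and 10.5 per Mb in Hox-/-. The ratio to the rest was 0.148 and 0.150 in wt and 0.156 and 0.150 in Hox-/-, so it was nearly alike in libraries of unequal depth.

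Density fell with each bin of distance, and whether it made a step at the desert limit was not tested. Density was 117 regions per Mb within gene bodies, 100.4 up to 50 kb from a gene, 63.6 at 50 to 100 kb, 41.8 at 100 to 250 kb and 25.6 at 250 to 500 kb. Inside deserts it was 15.2 per Mb at 500 to 1000 kb and 13.4 per Mb beyond 1000 kb. The 50 kb just outside the limit held 497 regions and the 50 kb just inside held 460, of which 54.3% and 50.2% were in all 4 libraries. The amount of sequence in these strips was not measured, so their densities cannot be compared. Every library gave the same order of bins.

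**Figure D1:**
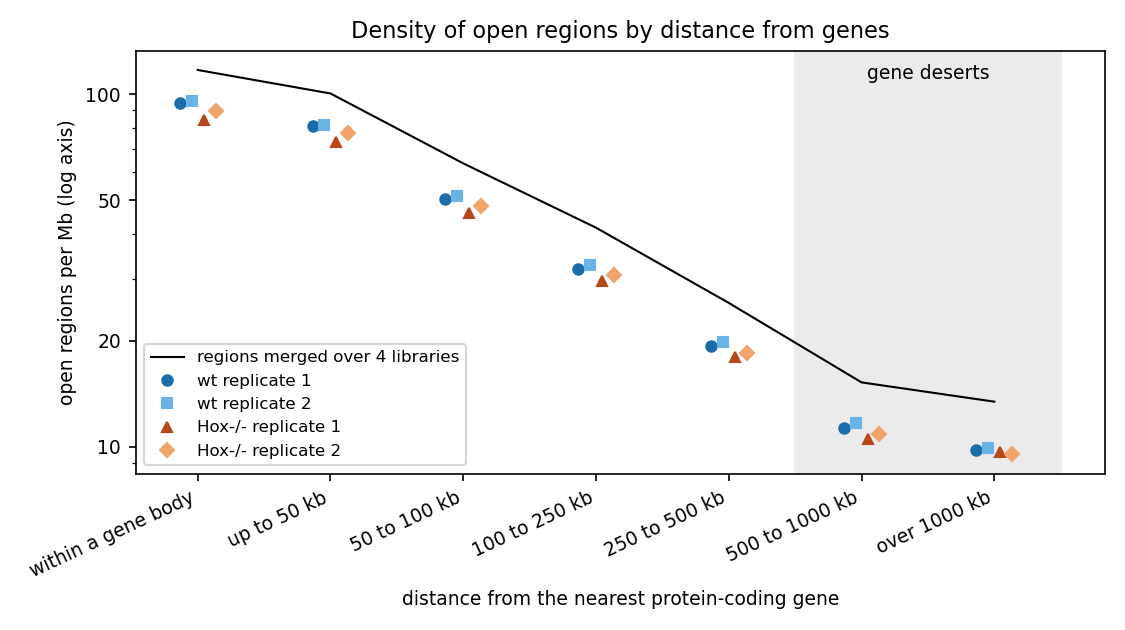
Open regions per Mb (log axis) in bins of distance from the nearest protein-coding gene, for the regions merged over the 4 libraries (line) and for each library (points), with deserts shaded. All 4 libraries fall with each bin, and the merged density goes from 117 per Mb within gene bodies to 13.4 per Mb beyond 1000 kb.

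Desert density differed less between chromosomes than density did over all bins of distance. It differed more than between the bins inside deserts, 15.2 and 13.4 per Mb. Chromosome 11 had the densest deserts, with 21.1 regions per Mb, followed by chromosome 7 with 20.5 per Mb. Chromosome 16 had the lowest value, 10.2 per Mb, and chromosome 2 the next, 10.9 per Mb. Chromosome 1 had the most members, 297, in 21.3 Mb of desert, and chromosome 19 the fewest, 24, in 1.51 Mb.

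Desert regions were narrow. Their median merged width was 383 bp against 432 bp elsewhere, and 3.66% were wider than 1 kb against 7.94%. The median width of single peaks was 371 and 373 bp in wt and 375.5 and 369 bp in Hox-/-, against 414, 409, 403 and 398 bp for the other autosomal peaks of the same libraries. The difference was -33.9 ± 7.12 bp (SD, n = 4 libraries), with the same sign in each. By an exact two-sided permutation test with sign flips p was 0.125, the smallest value that 4 libraries allow.

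The widest desert region, 1892 bp at chr8:50915174-50917065 between Tenm3 and Aga, overlapped the lncRNA gene 1700019L22Rik. This region ranked 49895 and 40200 in wt and 67769 and 57359 in Hox-/-. Its positions were 23.3% and 18.5% of the list in wt and 35.4% and 28.6% in Hox-/-, in the stronger part of each list. The next widest, 1733 bp at chr6:70102864-70104596, lay in the immunoglobulin kappa locus (Igk) and ranked 11565 and 15334 in wt and 10011 and 12575 in Hox-/-. A region of 1690 bp over the lncRNA gene Gm33963, at chr11:39677634-39679323, ranked 7565 and 12430 in wt and 12253 and 10344 in Hox-/-. The other 2 of the 5 widest, 1523 bp between Pcdh20 and Pcdh9 and 1486 bp between Adcyap1 and Mettl4, overlapped no annotated gene.

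The 4 libraries listed 2487, 2580, 2371 and 2390 desert peaks in the order wt replicates 1 and 2 and Hox-/- replicates 1 and 2. By −log10 p, these stood low in their lists. The median desert peak was at 55.0% and 55.8% of the list in wt and at 57.0% and 54.4% in Hox-/-, where 0% is the strongest end, against 49.8 to 49.9% for the rest. The difference was 5.68 ± 1.18 percentage points (SD, n = 4), toward the weak end in every library, with an exact permutation p of 0.125, again the smallest possible.

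The direction turned when peaks were ranked by fold over background in place of −log10 p. Median positions were then 45.7% and 46.5% in wt and 46.7% and 45.3% in Hox-/-, a difference of -4.01 ± 0.818 points (SD, n = 4) toward the strong end (exact permutation p = 0.125). The median fold of desert peaks was 4.73 and 4.74 in wt and 4.85 and 4.72 in Hox-/-, against 4.403, 4.49, 4.66 and 4.36 elsewhere. The background recovered at desert summits had a median of 7.46, 7.02, 4.77 and 7.36 reads, against 10.5, 9.88, 6.86 and 10.2 at the other summits. In each library that desert median was equal, to 3 digits, to the low end of the background of the whole list. A given fold over a lower background rests on fewer reads and so has a smaller −log10 p. Whether desert peaks count as weak or strong therefore depended on the scale, and the part of the background in this was not tested.

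Strong regions were present in deserts all the same. Regions with a peak among the 50000 strongest of a list numbered 479 and 458 in wt and 467 and 495 in Hox-/-, which is 20.5% to 23.5% of the desert regions of a library, against 26.9% to 30.1% elsewhere. There were 110 to 113 desert regions among the 10000 strongest peaks, 4.92% to 5.33% of those of a library against 5.78% to 6.496% elsewhere, and 9 to 12 among the 1000 strongest. In all 4 libraries together, 389 desert regions (13.2%, against 17.9% in the rest) were among the 50000 strongest, and 92 were among the 10000 strongest.

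The strongest of all, 1221 bp at chr2:98666190-98667410 between Lrrc4c, a synaptic adhesion gene, and Iftap, ranked 4 in both wt libraries and 3 in both Hox-/- libraries. Its fold was 14.7 and 14.6 in wt and 14.5 and 14.7 in Hox-/-. Its background was 27.3 and 26.5 times the median of the library in wt and 31.0 and 27.7 times in Hox-/-. A second region beside it, chr2:98662208-98662922, ranked 688 and 998 in wt and 188 and 649 in Hox-/- with a fold of only 5.23 to 5.67 and a background of 26.5 to 31.0 times the median. Another region between them, chr2:98664953-98665306, ranked 1674 and 1506 in wt and 705 and 1478 in Hox-/- with a background of 26.5 to 31.0 times the median. In all 3 regions the Hox-/- ranks were above the wt ranks, but as a percent of the list only the strongest kept the genotypes apart. The part of the background in their rank, and whether their signal reflects open chromatin, were not tested. Among desert regions in all 4 libraries, 25 of 1498 (1.67%) had a background over 3 times the median in every library, against 7.92% elsewhere.

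The other 8 of the 10 strongest had backgrounds of 1.84 to 4.37 times the median and folds of 16.6 to 27.4. One at chr7:52732065-52732929, between 1700015G11Rik and Luzp2, ranked 389 and 445 in wt and 285 and 320 in Hox-/-, and its ranks did not overlap between the genotypes. One at chr17:76499821-76500819, between Fam98a and Crim1, a regulator of bone morphogenetic proteins, ranked 327 and 482 in wt and 509 and 348 in Hox-/-. One at chr18:81865013-81866351, between the transcription factor gene Sall3 and the galanin receptor gene Galr1, ranked 578 and 548 in wt and 556 and 389 in Hox-/-. In the last 2 the ranks of the genotypes overlapped.

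Chromosome 4 had 3 of the 10. The region at chr4:17091880-17092552, between the kinase gene Ripk2 and the metalloproteinase gene Mmp16, had the highest folds, 25.9 and 27.4 in wt and 25.2 and 26.2 in Hox-/-, with ranks 748, 644, 1053 and 803. The region at chr4:26944220-26945224, between Manea and the ephrin receptor gene Epha7, ranked 377 and 370 in wt and 1056 and 681 in Hox-/-. In both, the wt ranks were above the Hox-/- ranks. The third, at chr4:38370886-38371551 between Lingo2 and 1700009N14Rik, ranked 1125 and 901 in wt and 1257 and 542 in Hox-/-.

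The last 2 lay at chr12:62706947-62708293, between the synaptic adhesion gene Lrfn5 and Fscb, and at chr1:114849331-114850188, between Dsel and the neurexin family gene Cntnap5a. The former ranked 634 and 483 in wt and 283 and 707 in Hox-/-, and the latter 1283 and 1000 in wt and 1100 and 837 in Hox-/-. Neither separated the genotypes. Among the 10 strongest, by rank in the list, both Hox-/- libraries thus ranked 3 regions above both wt libraries, and both wt libraries ranked 2 above both Hox-/- libraries, beside 21.4% and 19.6% of all autosomal regions listed in all 4 libraries. Of the former 3, 2 are the regions of very high background on chromosome 2.

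**Figure D2:**
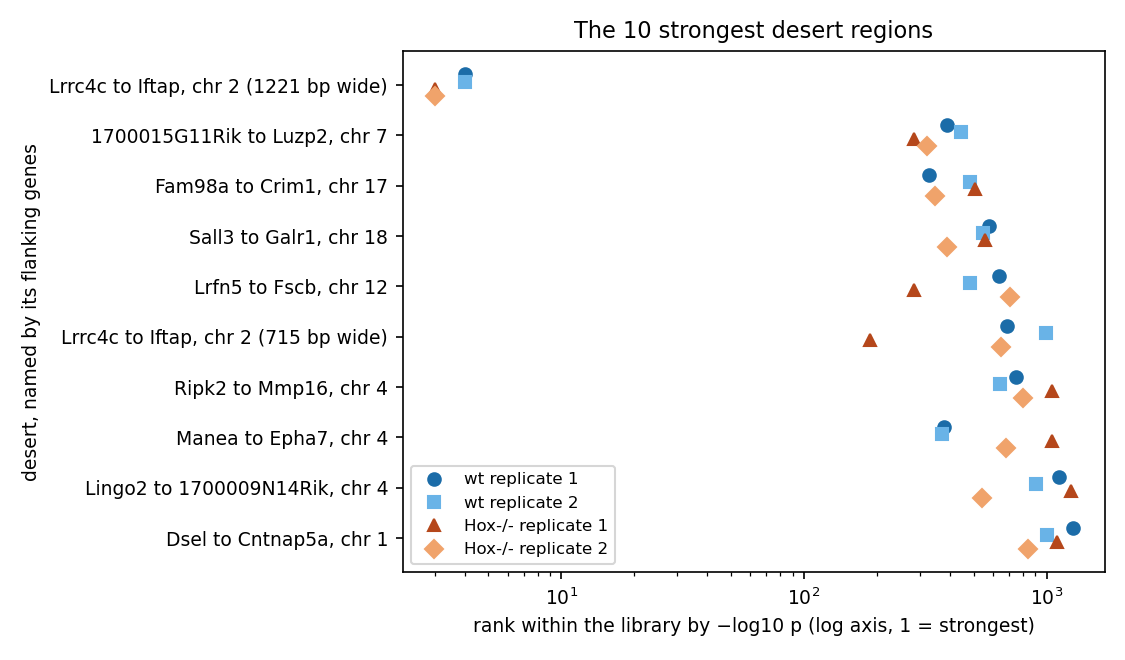
Rank within each library (log axis, 1 is the strongest) of the 10 desert regions with the best rank in their worst library, named by the flanking protein-coding genes. One region between Lrrc4c and Iftap ranks 3 or 4 in every library, and the others lie between 188 and 1283.

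The farthest region from any gene that was listed in all 4 libraries lay 2205 kb from Pcdh17, a protocadherin gene, at chr14:82238171-82238761. It ranked 51507 and 58088 in wt and 51762 and 36327 in Hox-/-, at a fold of 9.35 to 11.8. A region 2187 kb from Pik3c3, at chr18:28077592-28078209 over the lncRNA gene Gm33860, ranked 55668 and 67843 in wt and 50482 and 40361 in Hox-/-. The third, 2152 kb from Pcdh17 at chr14:82290464-82291176, was weaker, with ranks from 93079 to 140132. The median distance of a member from a gene was 764 kb.

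Of the members, 1498 were listed in all 4 libraries, 50.8% (exact 95% binomial interval 49.0 to 52.6), against 59.1% of the other autosomal regions. A further 368 (12.5%) were in 3 libraries, 400 (13.6%) in 2 and 683 (23.2%) in 1. Elsewhere these shares were 10.8%, 11.3% and 18.8%. The median width of members was 235 bp in 1 library, 289 bp in 2, 343 bp in 3 and 555 bp in all 4. These are merged widths, so part of the rise with the number of libraries is by construction. Members in 1 library were also weak, with a median position of 84.5% to 85.8% of the list, against 37.9% to 41.2% for members in all 4.

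At equal rank, replication was much alike inside and outside deserts. In the 3 strongest deciles of the wt replicate 1 list, 100% of desert regions were in all 4 libraries, and 99.8% to 100% of the others. In the fifth decile the share was 92.4% (88.2 to 95.4) in deserts and 89.1% elsewhere. In the seventh it was 52.5% (46.0 to 59.0) against 56.1%, and in the weakest 16.2% (11.1 to 22.4) against 16.8%. The desert intervals of every decile from the fourth on held the value for the rest, so no difference was detectable at these numbers.

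**Figure D3:**
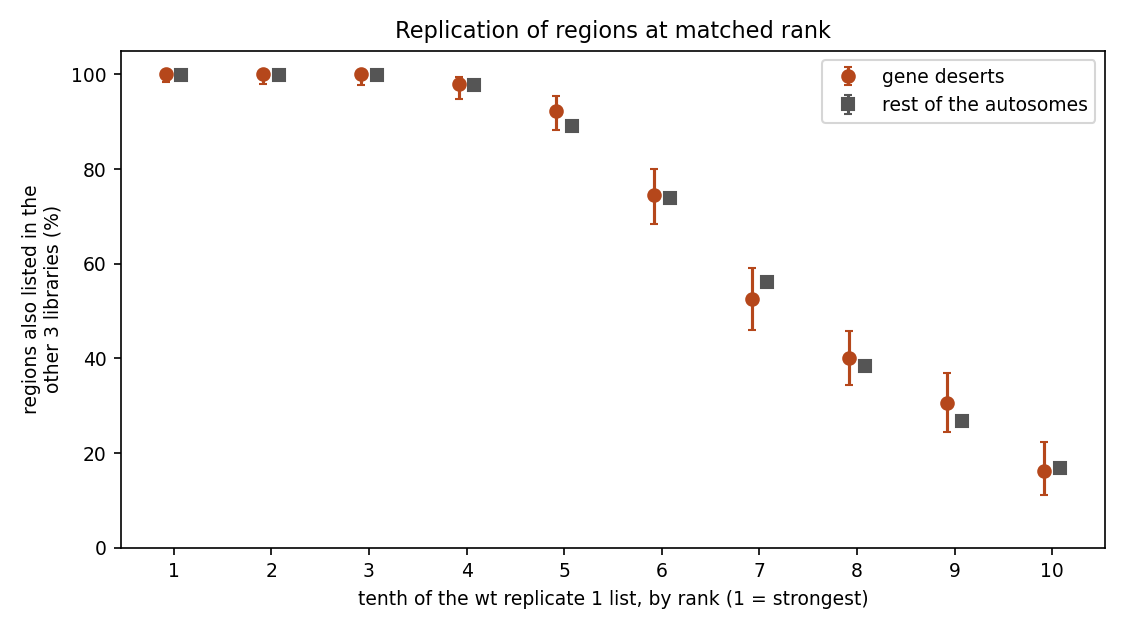
Percent of the regions of wt replicate 1 that were also listed in the other 3 libraries, by decile of the list, for deserts (circles) and the rest of the autosomes (squares), with exact 95% binomial intervals. Both sets fall from about 100% to 16.2% and 16.8% and stay close at each rank.

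Genotype agreement was high. Of 1840 desert regions listed in both wt libraries, 1726 had a peak in at least 1 Hox-/- library, 93.8% (92.6 to 94.9), against 94.6% of 141733 regions elsewhere. In bands of 20 points of mean wt rank position, from the strongest, 100%, 100%, 98.3%, 87.3% and 73.6% of desert regions had a Hox-/- peak. These bands held 397, 389, 421, 440 and 193 desert regions. The other regions gave 99.96%, 99.88%, 97.6%, 87.2% and 71.0%.

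Peaks in deserts made up 1.16% and 1.19% of the list in wt and 1.24% and 1.19% in Hox-/-. The means were 1.18 ± 0.0186% and 1.22 ± 0.0305% (SD, n = 2 each), a difference of 0.0384 points. The exact two-sided permutation p was 0.33, the smallest that 2 libraries against 2 can give, with both Hox-/- values above both wt values. The nearest values were 1.194% in Hox-/- replicate 2 and 1.190% in wt replicate 2, so the genotypes barely separated. The highest, 1.237%, was in Hox-/- replicate 1, the library of lowest inferred depth. Leaving out wt replicate 1 or 2 gave a difference of 0.0252 or 0.0515 points, and leaving out Hox-/- replicate 1 or 2 gave 0.0168 or 0.0599 points.

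Few regions were found in 1 genotype alone (a peak in both of its libraries and no peak in the other genotype), and they were weak. Of the members, 114 (3.87%) were listed in wt only, near the 3.82% of all autosomal regions. In Hox-/- only there were 60 (2.03%, interval 1.56 to 2.61), against 1.24% of all autosomal regions. None of the 174 was among the 50000 strongest of both its libraries. These counts depend on having 2 libraries a genotype: leaving out wt replicate 1 or 2 raised the wt count to 300 or 298, and leaving out Hox-/- replicate 1 or 2 raised it to 216 or 241. The Hox-/- count rose to 126 or 136 when wt replicate 1 or 2 was left out and to 216 or 224 when Hox-/- replicate 1 or 2 was.

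The strongest region of the Hox-/- set, chr3:11374160-11374594 between Snx16 and Ralyl, ranked 92733 and 72384 in the Hox-/- libraries at a fold of 5.72 and 6.94. The next, chr18:8460837-8461118 between Wac and the Wnt receptor gene Fzd8, ranked 95898 and 105956. The other 3 of the 5 strongest lay between Hace1 and Grik2, Ncam2 and Mrpl39, and Fstl5 and Rapgef2, with ranks from 111119 to 118299. The strongest of the wt set, chr3:48980258-48980552 between Pabpc4l and Pcdh18, ranked 109141 and 124431 in the wt libraries at a fold of 5.20 and 4.74. Others of the 5 strongest lay between Adgrl2 and Adgrl4, Tmem182 and Pou3f3, and Cntnap5b and Cdh20, with ranks from 120623 to 131397. In these regions the background stood at 0.702 to 0.726 of the library median, the low end of each list.

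Relative to other regions in all 4 libraries, desert regions stood slightly higher in the Hox-/- lists than in the wt lists. The Hox-/- lists are shorter (191704 and 200214 peaks, against 213705 and 216795), so only the difference from the rest can be read. Both Hox-/- libraries ranked 415 of 1498 regions (27.7%) above both wt libraries, against 21.4% of 120132 autosomal regions. Both wt libraries ranked 232 (15.5%) above both Hox-/- libraries, against 19.6%. The median log2 rank shift, positive where the Hox-/- rank is higher, was 0.08 in deserts and 0.01 elsewhere, and 59.5% of desert regions were above 0, against 51.8% elsewhere. Between replicates the desert median was -0.01 in wt and 0.02 in Hox-/-.

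The shift was small beside the spread of single regions, whose quartiles were -0.14 and 0.29. Per library, the median log2 rank of desert regions exceeded that of the rest, toward the weak end, by 0.25 and 0.25 in wt and by 0.18 and 0.17 in Hox-/-. The genotypes did not overlap, and the exact permutation p was 0.33, the smallest possible. On ranks taken as a percent of each list, the median was -0.05 in deserts and -0.12 elsewhere, so the sign of the shift itself depended on the scale. On that scale both Hox-/- libraries ranked 251 desert regions (16.8%) higher, and both wt libraries 366 (24.4%). Over all autosomal regions these shares were 11.7% and 31.4%. On ranks among the regions listed in all 4 libraries, which give lists of equal length, the median was 0.05 in deserts and 0.00 elsewhere. The shift beyond that of the rest was 0.07 with ranks in the list or as a percent of it, and 0.04 with ranks among regions listed in all 4 libraries. With ranks in the list it was 0.04 without Hox-/- replicate 2, and 0.02 when peaks were ranked by fold.

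Along the distance axis the median shift was 0.01 within gene bodies, 0.02 up to 50 kb, 0.01 at 50 to 100 kb, 0.02 at 100 to 250 kb and 0.04 at 250 to 500 kb. In deserts it was 0.07 at 500 to 1000 kb and 0.11 beyond 1000 kb. The difference between the 2 Hox-/- replicates reached 0.03 in 1 of these bins, and that between the wt replicates was -0.02 to -0.00. In bands of 20 points of mean rank position, from the strongest, the desert shift was 0.07, 0.06, 0.08, 0.09 and 0.14. These values rest on 389, 356, 401, 281 and 71 regions. Elsewhere the shift was -0.00, 0.00, 0.00, 0.04 and 0.11. In the second band the Hox-/- replicates differed by 0.08 in deserts, more than the genotypes did.

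**Figure D4:**
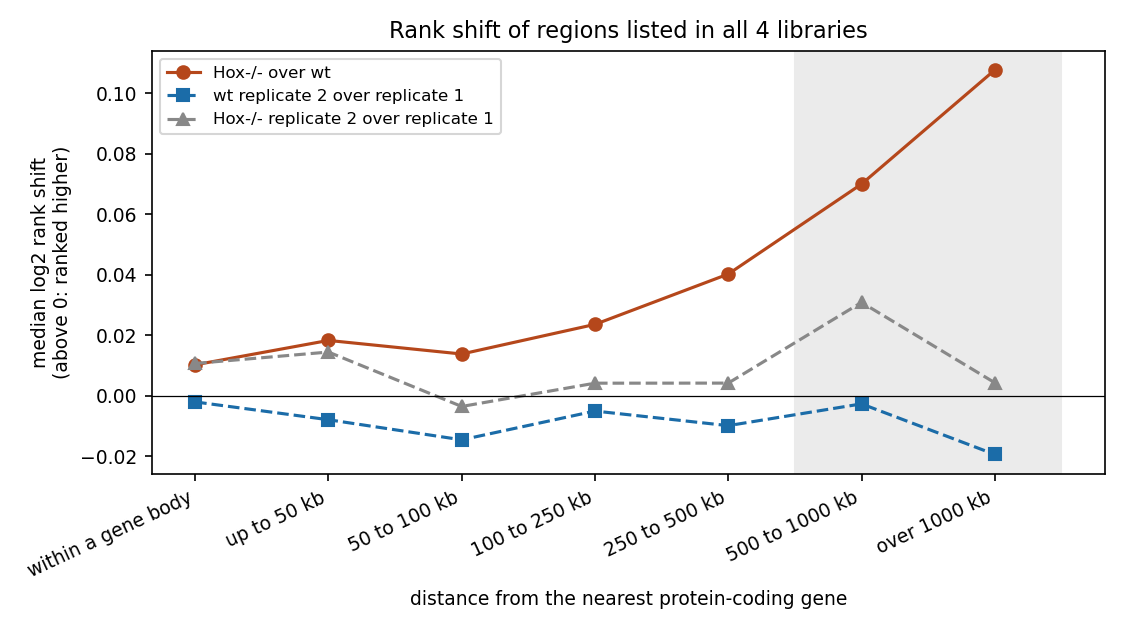
Median log2 rank shift of regions listed in all 4 libraries, by distance from the nearest protein-coding gene, between genotypes (circles) and between the replicates of each genotype (squares and triangles), with deserts shaded. The line between genotypes goes from 0.01 within gene bodies to 0.11 beyond 1000 kb, and the replicate lines stay between -0.02 and 0.03.

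By chromosome the median desert shift ran from -0.00 on chromosome 15 to 0.16 on chromosome 6. Leaving out any 1 chromosome gave 0.07 to 0.09. Of 56 deserts with at least 10 regions in all 4 libraries, 40 had a median above 0 and 16 below. Like the chromosome values, this tally uses ranks in the list. It would differ on ranks as a percent of the list, where the median of all desert regions was -0.05, and it was not taken relative to the rest. The highest median was 0.33 between Nxph1, a neurexophilin gene, and Ndufa4, a gene of mitochondrial respiration. It was followed by 0.29 between Ripk2 and Mmp16 and 0.27 between Lrrc4c and Iftap. The last of these fell to 0.10 without the 3 regions of very high background on chromosome 2 described above. The lowest was -0.19 between Agtr1b, an angiotensin receptor gene, and Tbl1xr1. These medians rest on 11 to 15 regions each.

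The desert sequence formed 247 uninterrupted stretches with a median length of 498 kb, and 18 of them held 0 regions. All 122 stretches over 500 kb long had at least 1 region. Their density had a median of 12.6 per Mb, with 5.52 and 23.1 per Mb at percentiles 10 and 90 and a maximum of 37.5 per Mb. The 10 fullest held 17.8% of members on 13.5% of desert length, so members were spread over many deserts.

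The fullest desert, 3278 kb on chromosome 1 between Cntnap5b, a neurexin family gene, and the cadherin gene Cdh20, had 66 regions, 33 of them in all 4 libraries. The protocadherin gene Pcdh7 and G6pd2 border a desert on chromosome 5 with 56 regions, 29 in all 4. Between the protocadherin genes Pcdh20 and Pcdh9, on chromosome 14, the longest desert of all (3542 kb) had 54 regions, 24 in all 4. Between the cadherin genes Cdh6 and Cdh9, on chromosome 15, there were 53, of which 23 were in all 4. The densities of these 4 deserts were 20.1, 20.9, 15.2 and 20.8 per Mb.

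The sparsest stretches over 500 kb were on chromosomes 8 and 16. Between Frg1 and Triml1 there was 1 region in 713 kb, listed in all 4 libraries. Between the ephrin receptor gene Epha6 and Nsun3 there were 3 in 1122 kb, and between the netrin receptor gene Unc5d and Dusp26 there were 3 in 870 kb, each with 1 in all 4. The longest stretch of desert without a region was 1001 kb, at chr5:78166059-79167286 between Igfbp7 and the adhesion receptor gene Adgrl3.

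Genes at the borders were described with 2 lists. Of 72 autosomal cell adhesion and synapse genes listed, 45 (62.5%) bordered a desert, and of 67 developmental transcription factor genes 18 (26.9%) did, against 456 or 2.22% of all 20560 protein-coding genes. Both lists were drawn up with deserts in mind, so the first shares are no finding. Deserts beside adhesion genes held 38.9% of members on 42.7% of desert length, and 49.9% of those were in all 4 libraries. Deserts beside transcription factor genes held 7.22% of members on 6.22% of length, with 54.0% in all 4. Over all deserts that last share was 50.8%.

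Single transcription factor genes differed widely. The desert between Bcl11a, a zinc finger repressor gene, and Fancl had 36 regions, 29.7 per Mb, and 18 were in all 4 libraries. The one beside Nr2f1, a nuclear receptor gene of forebrain patterning, had 34, or 20.2 per Mb, and 20 were in all 4 libraries. The one beside Zeb2, a repressor of epithelial genes, had 29 in 2697 kb, 10.8 per Mb. Short desert stretches of 6.31 to 116 kb beside Irx1, Id4, Sox9 and Tshz1 held 0.

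Sox2, a pluripotency gene that these cells depend on, borders a stretch of only 102 kb on the side of Atp11b that counts as desert. It held 10 regions, 98.4 per Mb, a density like that near genes. Of these, 6 were in all 4 libraries, at 500 to 594 kb from Sox2. The strongest, 1107 bp wide at chr3:35242426-35243532, ranked 58395 and 75333 in wt and 45324 and 65723 in Hox-/-. Another, at chr3:35154108-35154801, ranked 55364 and 70320 in wt and 76076 and 53914 in Hox-/-. The ranks of the 2 genotypes overlapped in both, and none of the 6 was among the 50000 strongest in every library.

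Most members stood alone or in small groups. The nearest neighbour of a desert region was at a median of 13.6 kb, against 1.89 kb elsewhere. Chains of at least 5 regions no more than 20 kb apart numbered 67 and held 428 members (14.5%), while 1187 (40.3%) had no neighbour within 20 kb. Regions in chains were in all 4 libraries in 57.0% of cases and among the 50000 strongest in all 4 in 18.5%. For lone regions these values were 42.9% and 8.17%. Median widths were 400 and 344 bp.

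The largest chain, 17 regions over 146 kb at chr14:53537890-53683933 between Gm36448 and Dad1, lay in the T cell receptor alpha locus and covered 16 variable gene segments of the Trav family. Of its regions 11 were in all 4 libraries. One of 886 bp stood far above the others, with ranks 1905 and 1272 in wt and 980 and 2311 in Hox-/-. The next strongest, 850 bp wide, ranked 21841 and 31170 in wt and 16308 and 24441 in Hox-/-.

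The second, 15 regions over 75.3 kb at chr7:136219572-136294849, lay between Mki67, the gene of a proliferation antigen, and the DNA repair gene Mgmt, and overlapped the lncRNA gene C030029H02Rik. Only 6 of its regions were in all 4 libraries, and 3 were in a single library. Its best ranks were 27996 and 23509 in wt and 31774 and 24441 in Hox-/-.

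The chain of 11 regions at chr11:7728645-7830206, between Igfbp3, which encodes a binding protein of insulin-like growth factors, and Tns3, was the strongest of the other 4 large ones, and 8 of its regions were in all 4 libraries. A region of 1137 bp ranked 6064 and 5578 in wt and 5279 and 5937 in Hox-/-. Another of 1386 bp ranked 9730 and 6669 in wt and 6331 and 8469 in Hox-/-, and one of 705 bp ranked 24648 and 14512 in wt and 18018 and 18052 in Hox-/-. The ranks of the genotypes overlapped in all 3.

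The chain of 11 at chr5:59921917-59956524, in the desert of Pcdh7 and G6pd2, was the most compact of the 5 largest, 34.6 kb. Of its regions 5 were in all 4 libraries and 5 in 1 only. Its strongest ranked 23917 and 27447 in wt and 20105 and 15778 in Hox-/-. The chain of 10 at chr1:35434900-35495659, between Plekhb2 and the heparan sulfate gene Hs6st1, had 6 regions in all 4 libraries and best ranks of 35678 and 29206 in wt and 34527 and 35242 in Hox-/-. It tied with a chain of 10 at chr12:43175072-43245864, between Immp2l and Dnajb9, and was taken as the fifth because its span is shorter. The tied chain spans 70.8 kb, with 8 regions in all 4 libraries and stronger best ranks, 3392 and 5213 in wt and 6984 and 3677 in Hox-/-.

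**Figure D5:**
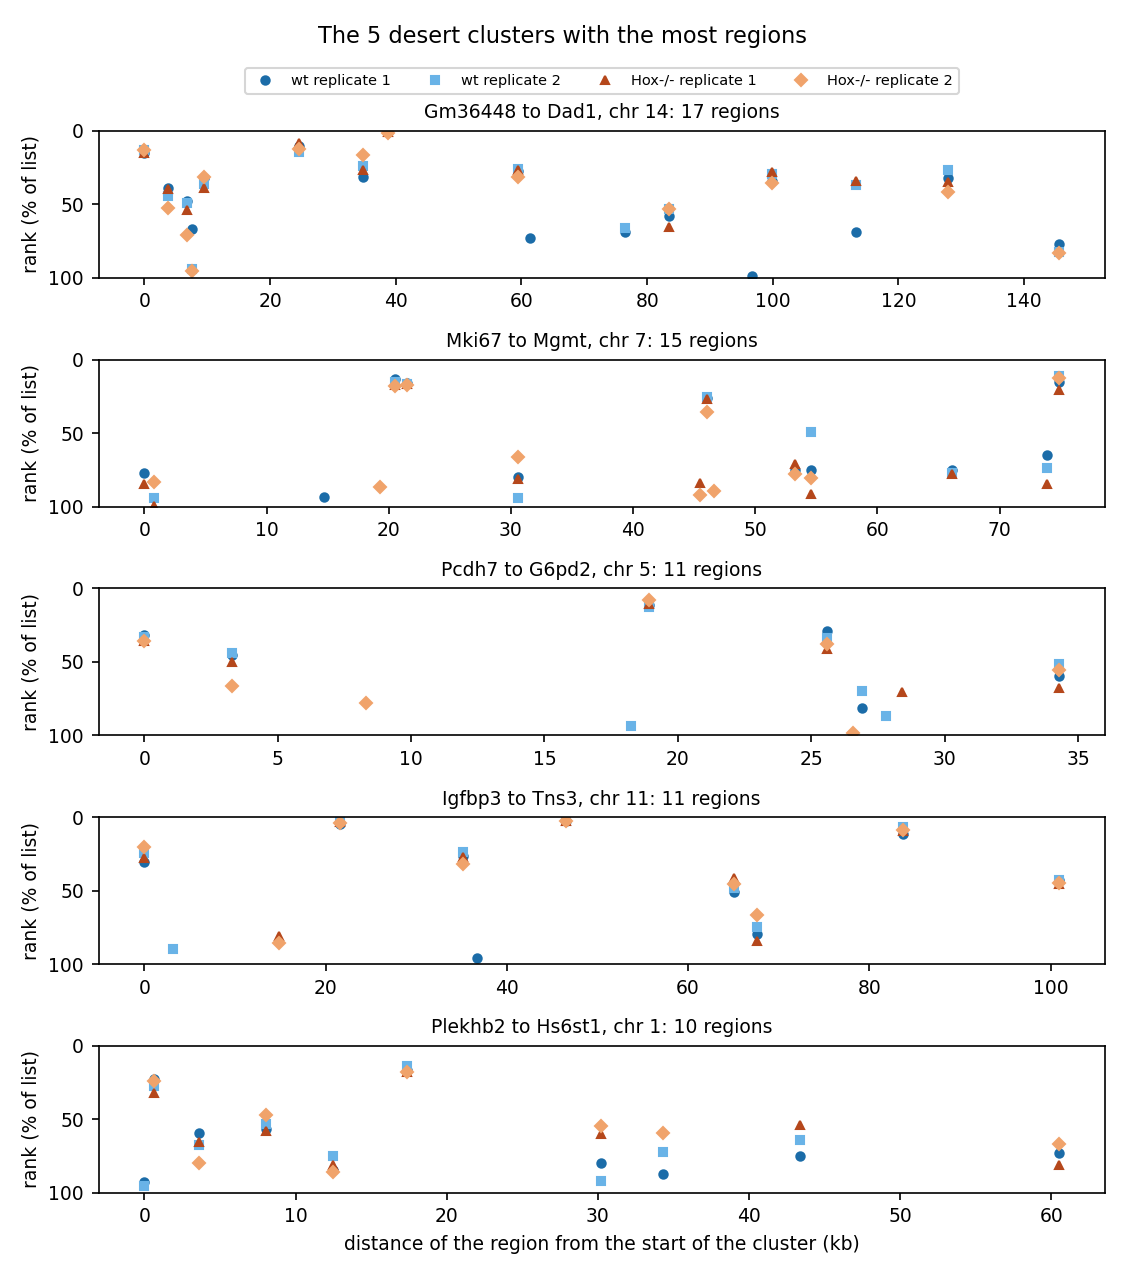
Position of each region in the 5 chains with the most regions (of 2 chains tied at 10 regions, the shorter), in kb from the start of the chain, against its rank in each library as a percent of the list, with 0 the strongest. Regions with a good rank have 4 points close together, while those near 100 often have points of fewer libraries, as in the chain between Mki67 and Mgmt with 6 of 15 regions in all 4.

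Antigen receptor gene segments are not annotated as protein-coding, so their loci are deserts only by the rule. Of the 67 chains, 3 lay over such loci. These loci held 116 members: 59 in the kappa locus on chromosome 6 (32 in all 4 libraries), 31 in the heavy chain locus on chromosome 12 (17 in all 4) and 26 in the T cell receptor alpha locus on chromosome 14 (17 in all 4). The best ranks in the kappa locus were 2439 and 1910 in wt and 2356 and 2149 in Hox-/-. In the heavy chain locus they were 18680 and 22279 in wt and 14825 and 16633 in Hox-/-. Without these loci 2833 members and 64 chains remained, the density ratio was 0.158, and 50.5% of members were in all 4 libraries.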

How the data were processed

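Peaks of 4 ATAC-seq libraries were analysed, and samples were grouped by the genotype label. The authors deposited 1 peak list per library, not pooled. Per the submitters' processing notes, cutadapt 4.8, Bowtie2 2.5.0, Picard 2.18.2, bedtools 2.30.0, MACS2 2.2.9.1, deepTools 3.5.4 and build mm10 were used, with no parameters or order. Whether reads were shifted for the transposase is not given in the sources used here.

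Each deposited line has the authors' fold over background (a ratio), a −log10 p and −log10 q, an integer score, which was not used, and a summit position. The lowest −log10 q was 1.30 in every deposited list, so weaker peaks are not analysed here. Fold and p describe or rank peaks within a list only. Equal −log10 p share a rank. Read depth is unknown. Pileup and background at a summit were recovered from fold and p under a Poisson model, with a tolerance of 0.05 for a whole pileup, and the low end of the background described relative depth.

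Lines that overlapped by at least 1 bp were merged over the libraries. Distances and names come from a RefSeq table of GRCm38.p6 without strand, with 20560 protein-coding genes. A total of 328 genes (105 protein-coding) that end before position 2999912, ahead of the first listed peak of any autosome, were left out, since such positions appear to count along scaffolds. Scaffold genes at larger positions could remain, and would end deserts where no gene lies. Start windows are RefSeq's. The table's build and mm10 have the same chromosome coordinates.

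Named regions are the 10 strongest in their worst library, the 5 largest chains (ties by the shorter span), the 5 fullest and 3 sparsest deserts, the 5 strongest listed in 1 genotype only in each direction, the 3 farthest and the 5 widest. Some items under this rule are not reported here. The windows shown, the deserts named for their rank shift and those beside transcription factor genes were chosen after their values were seen. Members and lists were chosen with earlier results of these data known. The values within bands of rank and the rank shift with its 3 scales were also added after seeing the data. Tests were exact permutation tests over libraries, and the scripts, in Python 3.11.15 with numpy 2.4.6, pandas 2.3.3 and scipy 1.17.1, were tested on simulated data. Alternatives were other distances, gene types, thresholds, merging, ranking and chaining, and leaving out each replicate.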

Additional observations from a re-analysis of the deposited data

How the results depend on the processing

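Of 128 alternative values, 69 stayed, 58 moved and 1 changed sign. At a distance of 250 kb there were 7850 members, a density ratio of 0.205, a median width of 390 bp, 283 wt only and 151 Hox-/- only regions, and 272 chains. At 1000 kb there were 882 members, a ratio of 0.155, a median rank position of 54.1%, 29 wt only and 16 Hox-/- only regions, and 14 chains. With genes of any type as borders only 34 members were left, with a ratio of 0.172, a width of 418 bp, a rank position of 54.2%, 35.3% in all libraries, 95% of wt regions with a Hox-/- peak, 1 wt only region, 1 Hox-/- only region and 1 chain. The share of peaks in deserts then differed by -0.00122 points, the opposite sign.

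With −log10 q of at least 5 the ratio was 0.156, the width 409 bp, the rank position 47.9% (within the whole list) and the share of wt regions with a Hox-/- peak 92.0%. With the 50000 strongest peaks of each library there were 574 members, a ratio of 0.119, a width of 721.5 bp, a rank position of 11.7%, 67.8% in all libraries, 95.6% with a Hox-/- peak, 19 wt only, 21 Hox-/- only and 2 chains. Ranking by fold gave a position of 46.0%, and counting only the best line of a region 54.2%. Where peaks had to cover 50% of a region, 46.7% were in all libraries. Chaining at 10 kb gave 26 chains and at 50 kb 155.

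Leaving out 1 replicate at a time gave a ratio of 0.157 to 0.159, widths of 374 to 383 bp, 56.3% to 58.3% in all 3 libraries left, 86.3% to 88.3% of wt regions with a Hox-/- peak, 216 to 300 wt only and 126 to 224 Hox-/- only regions. By construction, fewer libraries are then needed for a call. Region ranks gave no sign that replicate numbers pair the samples: deviations of same-numbered libraries correlated with r = 0.00413 over 120132 regions and -0.00560 over the 1498 desert regions, described without a test. These values cannot show whether same-numbered libraries were prepared together. With the replicate number as a block the difference in the share of peaks was 0.0384 points and the rank shift beyond the rest 0.06. A region missing from a list may be open below its threshold, and the effect of depth on the calls was not tested.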
